A study of Mus musculus with 8 samples.

Results

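Guanylate-binding proteins (GBPs) were examined in murine peritoneal mast cells (PMCs), a connective tissue type of mast cell grown from the peritoneal lavage. The genes were the 9 rows named Gbp2, Gbp3, Gbp4, Gbp5, Gbp6, Gbp7, Gbp8, Gbp9 and Gbp10 among 55359 genes of the deposited count table. They were chosen by their values in 2 PMC lines against primary PMCs, because several of them moved in opposite directions in the lines. Those values are therefore given as a description without a test. Gbp2b and Gbp11, the other 2 family genes measured, were added for comparison.

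All 8 libraries came from untreated wild-type PMCs of the mixed strain C57BL/6x129/Sv. PMC-303 and PMC-306 are lines that arose spontaneously in ageing cultures, with 1 library each. The 6 primary cultures comprised 3 from female and 3 from male mice, labelled as biological replicates. The lines were grown with less serum and less stem cell factor than the primary cultures, so that medium and transformation cannot be told apart. Since each line was sequenced once, no replicate stands behind its values.

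GBPs are large GTPases related to dynamin. They bind guanine nucleotides, assemble into multimers and coat vacuoles and bacteria inside infected cells, and some of them promote inflammasome activation through caspases. Interferon-gamma is their best known inducer and acts through its receptor, JAK kinases and downstream transcription factors such as IRF1. Several members, among them GBP2 and GBP5, carry a lipid anchor attached by prenylation. The mouse genes lie in one cluster on chromosome 3 and another on chromosome 5.

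Libraries held 15918757 to 24180226 estimated counts, so that 3 counts, the limit that a count of 0 allows, were 0.123 to 0.187 CPM (counts scaled to library size). This limit and the intervals below cover counting error only. Of 8 mast cell markers, 8 reached 1 CPM in PMC-303 and in primary cultures and 7 in PMC-306, where the protease gene Mcpt4 was at 0.0492 CPM. The summed mast cell markers were 38445 CPM in PMC-303, 35093 CPM in PMC-306 and 46090 to 74359 CPM in the primary cultures. Markers of B cells, neutrophils and fibroblasts or mesothelial cells summed to at most 0.246 CPM in any library.

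On GRCm39, the build of the deposited tables, the chromosome 3 cluster runs along the plus strand. In GENCODE M39 it holds Gbp5 (ENSMUSG00000105504.5, chr3:142199739-142228105), Gbp7 (ENSMUSG00000040253.16, chr3:142236044-142255910), Gbp3 (ENSMUSG00000028268.15, chr3:142265731-142278979), Gbp2b (chr3:142300602-142324940) and Gbp2 (ENSMUSG00000028270.13, chr3:142326349-142343779). The chromosome 5 cluster lies on the minus strand. It holds Gbp8 (ENSMUSG00000034438.17, chr5:105162016-105287452), Gbp9 (ENSMUSG00000029298.16, chr5:105224332-105287452), Gbp4 (ENSMUSG00000079363.8, chr5:105263633-105287609), Gbp10 (ENSMUSG00000105096.2, chr5:105362773-105412666), Gbp6 (ENSMUSG00000104713.5, chr5:105418568-105443751) and Gbp11 (chr5:105470908-105494338). Gbp8, Gbp9 and Gbp4 overlap on the same strand and all these genes are close relatives, so that the split of reads between them is uncertain.

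The upstream sequences below are shown because interferon acts on GBP genes through short promoter elements. They come from RefSeq promoter windows on GRCm38.p6, which reach from 250 bases before to 50 bases after a start site, and 4 members, Gbp2, Gbp3, Gbp5 and Gbp7, had a window. Printed 5′ to 3′ are the 170 bases before each start site. Capitals mark matches, on either strand, to the interferon-stimulated response element written as GAAA, any 2 bases and GAAA, and to the interferon-gamma activated site written as TTC, any 3 bases and GAA.
Gbp5 (chr3:142496764-142496933, plus strand): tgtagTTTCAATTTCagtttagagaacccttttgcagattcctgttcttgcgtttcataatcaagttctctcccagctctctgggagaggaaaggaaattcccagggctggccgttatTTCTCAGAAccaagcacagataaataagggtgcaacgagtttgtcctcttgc
Gbp7 (chr3:142530166-142530335, plus strand): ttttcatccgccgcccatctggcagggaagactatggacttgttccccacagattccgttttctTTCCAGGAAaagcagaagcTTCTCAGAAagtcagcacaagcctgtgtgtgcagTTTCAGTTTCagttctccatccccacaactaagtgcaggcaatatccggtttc
Gbp3 (chr3:142559874-142560043, plus strand): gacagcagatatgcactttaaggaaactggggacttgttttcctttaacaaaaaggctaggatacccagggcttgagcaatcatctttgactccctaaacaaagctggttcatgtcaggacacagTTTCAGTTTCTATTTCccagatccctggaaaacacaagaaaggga
Gbp2 (chr3:142620493-142620662, plus strand): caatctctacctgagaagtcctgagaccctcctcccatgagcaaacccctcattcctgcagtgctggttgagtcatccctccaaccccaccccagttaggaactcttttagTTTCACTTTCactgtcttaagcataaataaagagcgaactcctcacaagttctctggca

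Each of these 4 windows held at least 1 response element, compared with 3.44% of all 32851 windows. The element began 165 bases before the start of Gbp5, 53 bases before Gbp7 and 59 bases before Gbp2, each time on the minus strand. Gbp3 had 2 overlapping elements, at 45 and 39 bases before the start, and a second RefSeq window of Gbp3 had none. The activated site was found 2 times in Gbp7, at 106 and 87 bases before the start, and 2 times in Gbp5, at 52 bases and, outside the printed stretch, at 245 bases. It was absent as these letters from the windows of Gbp3 and Gbp2 and occurred in 8.3% of all windows. An NF-κB-like motif, written as GGG, any 4 bases and TCC, was also searched and matched in Gbp5, Gbp3 and Gbp2, against 19.2% of all windows. A match is a description of sequence and shows no binding.

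Gbp7 had the highest level of the family in each of the 6 primary cultures. TPM is a transcript level scaled for transcript length and depth, so that levels of different genes can be compared. Gbp7, which has been linked to assembly of the phagocyte NADPH oxidase, was highest at 15.1 ± 1.45 TPM (SD, n = 6). Gbp2, a GTPase that coats parasite vacuoles, followed with 5.45 ± 2.92 TPM (SD, n = 6), and the ranges of both genes did not overlap (12.9 to 17.4 and 1.85 to 8.95 TPM). Gbp6 had 2.45 ± 4.22 TPM, Gbp9 1.26 ± 1.8 TPM and Gbp4 1.22 ± 2.17 TPM (SD, n = 6), and neighbours in this order did not differ beyond their spread. Gbp3, Gbp10, Gbp8 and Gbp5 had means of 0.314, 0.245, 0.146 and 0.0569 TPM.

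Summed over the 11 Gbp genes, the family reached 16.7 TPM in PMC-303, 18.5 to 50.5 TPM in primary cultures and 168 TPM in PMC-306. Gbp7 was the highest gene in every library except PMC-306, where Gbp6 took its place. Gbp7 made up 81.6% of the family's TPM in PMC-303, 34.4% to 80.2% in primary cultures and 9.58% in PMC-306. Gbp6 alone made up 50.8% in PMC-306. The chromosome 5 genes together supplied 4.34% in PMC-303, 0.676% to 46.5% in primary cultures and 85.8% in PMC-306.

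**Figure D1:**
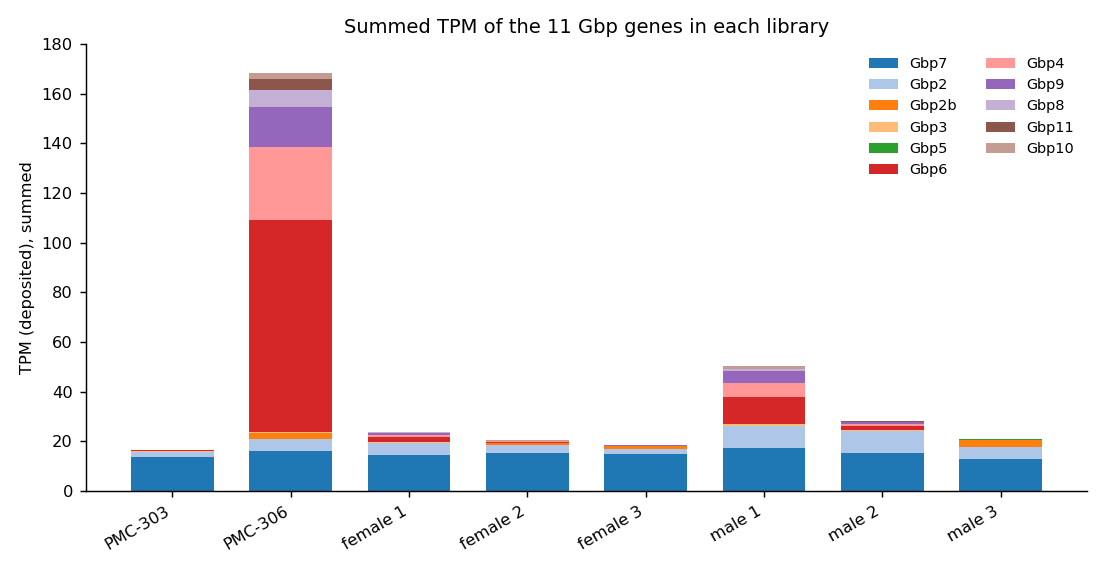
Stacked bars give the deposited TPM of the 11 Gbp genes in each library, with 1 bar per library and no error. Gbp7 fills most of the bar in PMC-303, while Gbp6, Gbp4 and Gbp9 fill most of the 168 TPM of PMC-306, and male primary culture 1 with 50.5 TPM is the highest primary bar.

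The chromosome 5 members were the ones that separated the lines most. Gbp6, one of the GBPs that gather on parasite vacuoles, reached 242 CPM in PMC-306 but 1.23 CPM in PMC-303. The female primary cultures 1 to 3 had 5.28, 1.25 and 0.316 CPM of Gbp6, and the male cultures 1 to 3 had 31.1, 3.92 and 0.105 CPM. PMC-306 lay 7.77-fold above the highest primary culture, while PMC-303 lay inside the primary range.

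Gbp4, whose product has been studied in host defence against parasites and bacteria, had 71.5 CPM in PMC-306 but 0.123 CPM (3 counts) in PMC-303. It had 3.62, 0.527 and 0.273 CPM in the female and 17.6, 2.51 and 0.21 CPM in the male cultures. PMC-306 was above and PMC-303 below all 6 primary cultures. Male culture 3 had 4 counts, so that PMC-303 with 3 counts was not separated from it beyond counting error. The primary mean exceeded PMC-303 33.4-fold by CPM, with a 95% Poisson interval of 11.4 to 162 from the 3 counts. This interval holds the primary mean fixed and does not cover the spread among the primary cultures.

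Gbp9, another GBP found on vacuoles, had 51.8 CPM in PMC-306 but 0.782 CPM in PMC-303. The female cultures had 4.69, 1.45 and 0.729 CPM and the male cultures 16.7, 3.4 and 0.262 CPM. The level of PMC-306 was 3.11-fold the highest primary value, and PMC-303 was within the primary range.

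Gbp8 and Gbp10 were near the limit of detection outside PMC-306 and male culture 1. Gbp8 had 14.5 CPM in PMC-306, 0 counts in PMC-303, at most 0.141 CPM in the female cultures and 1.19, 0.249 and 0 CPM in the male cultures. Gbp10 had 1.48 CPM in PMC-306, 0 counts in PMC-303, 0.112 CPM in female culture 2, 0.777 CPM in male culture 1 and 0 counts elsewhere. PMC-306 was above every primary culture for both genes.

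**Figure D2:**
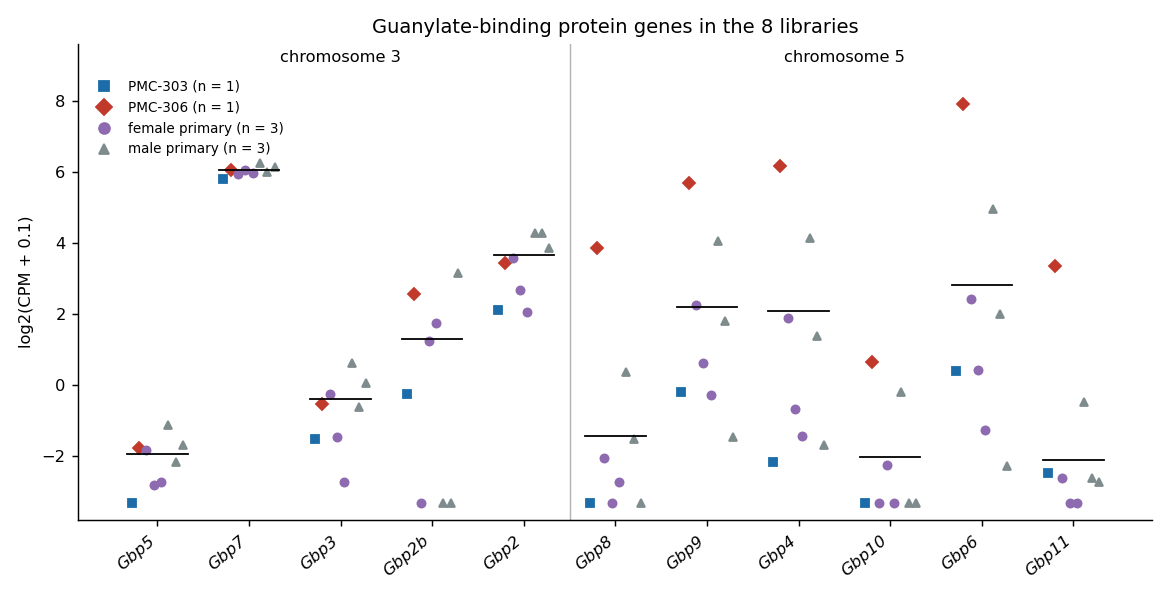
Each point is 1 library, as log2(CPM + 0.1), and the black line is the mean CPM of the 6 primary cultures on the same scale. PMC-306 stands above all primary cultures for the 6 chromosome 5 genes, and on chromosome 3 Gbp7 varies little, between 55.2 and 76.2 CPM.

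The chromosome 3 members did not share this pattern. Gbp7 had 55.2 CPM in PMC-303, 66.4 CPM in PMC-306, 61.4, 65.9 and 62.7 CPM in the female and 76.2, 64.1 and 70.1 CPM in the male cultures. PMC-303 was just below the lowest primary culture in CPM, although not in TPM (13.6 against 12.9), and PMC-306 was within their range. Gbp2 had 4.24 CPM in PMC-303, 10.7 CPM in PMC-306, 11.8, 6.28 and 4.09 CPM in the female and 19.4, 19.2 and 14.4 CPM in the male cultures. Both lines were inside the primary range of Gbp2, and every male culture was above every female culture.

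Gbp3 was low throughout, with 0.247 CPM in PMC-303, 0.589 CPM in PMC-306, 0.736, 0.264 and 0.0529 CPM in the female and 1.43, 0.56 and 0.946 CPM in the male cultures. Both lines were inside the primary range. Gbp5, which has been linked to NLRP3 inflammasome assembly, had 0 counts in PMC-303, 4 counts in PMC-306 and 1 to 7 counts in the primary cultures. A difference in Gbp5 was not detectable at this depth.

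As folds on the CPM + 0.1 scale over the primary mean, PMC-306 was 34.1-fold higher for Gbp6, 16.9-fold for Gbp4, 39.3-fold for Gbp8, 11.2-fold for Gbp9 and 6.37-fold for Gbp10. For the chromosome 3 members it was between 0.857-fold and 1.13-fold. These 5 members were at least 5-fold higher in PMC-306, where the direction holds for 3.96% of 13064 genes with 1 CPM in the line or in the primary mean, and 7 members reached that level. Gbp8 and Gbp10 reached it only in PMC-306 (primary means 0.272 and 0.148 CPM), so that they could not have counted as lower. No member was 5-fold lower in PMC-306, against 3.83% of genes. The same 5 members were above all 6 primary cultures, as were 34.6% of genes.

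In PMC-303, Gbp4 was 18.9-fold, Gbp6 5.32-fold and Gbp9 5.25-fold lower than the primary mean, on the CPM + 0.1 scale. These were 3 of 5 members that reached 1 CPM in PMC-303 or in the primary mean, and 3.16% of 13024 genes were lower by this rule. Gbp4 and Gbp9 reached 1 CPM only in the primary mean (0.123 and 0.782 CPM in PMC-303), so that they could not have counted as higher. No member was 5-fold higher in PMC-303, against 3.9% of genes. Among the same 5 members Gbp4 (3 counts, against 4 in male culture 3) and Gbp7 were below all 6 primary cultures, as were 30.2% of genes. The primary mean of Gbp8 was at least 2.2-fold above PMC-303, taking 3 counts as the limit there. Without male culture 1 that mean was 0.0884 CPM, under the limit of 0.123 CPM in PMC-303. PMC-303 lay inside the primary range of Gbp8, so that a fall was not detectable.

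Gbp4, Gbp6 and Gbp9 were thus 5-fold lower in one line and 5-fold higher in the other, as were 0.0827% of 13304 genes. The choice of genes used this contrast, and the share is given for scale only. Gbp6 and Gbp9 were just past the threshold in PMC-303 (5.32-fold and 5.25-fold lower), and the next of the members with enough counts was Gbp2 at 2.91-fold lower.

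The lower values in PMC-303 depended on a single primary culture. Without male culture 1, Gbp6 in PMC-303 was 1.7-fold and Gbp9 2.5-fold below the primary mean, and Gbp4 6.84-fold. Against the primary median the values were 2.01-fold, 2.86-fold and 7.24-fold. The rise in PMC-306 was larger without male culture 1, at 106-fold for Gbp6, 46.8-fold for Gbp4, 77.6-fold for Gbp8, 23.5-fold for Gbp9 and 12.9-fold for Gbp10.

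**Figure D3:**
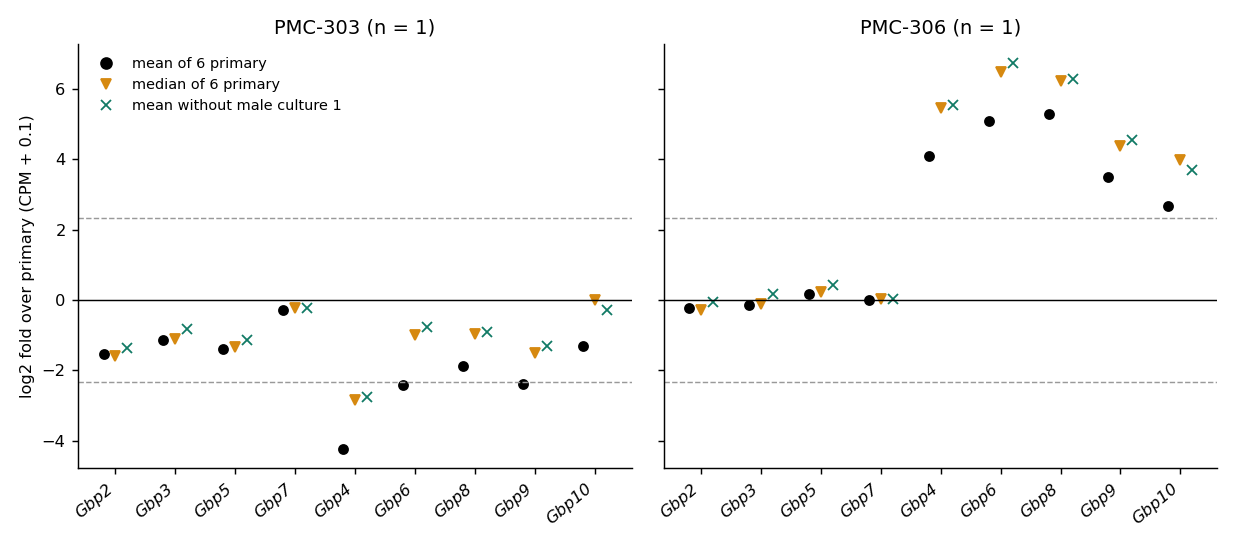
Points give log2 folds of CPM + 0.1 in each line over the mean of the 6 primary cultures, their median, or the mean without male culture 1, and dashed lines mark 5-fold. In PMC-306 the 5 chromosome 5 members are past 5-fold by all 3 references, whereas in PMC-303 only Gbp4 is, and Gbp6 falls to 1.7-fold lower without male culture 1.

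Set directly against each other, the lines had 3 counts of Gbp4 in PMC-303 and 1456 in PMC-306, a CPM ratio of 579 (exact 95% interval 198 to 2811). The ratio was 196 for Gbp6 (137 to 290) and 66.2 for Gbp9 (42.2 to 110). PMC-306 was at least 118-fold higher for Gbp8 and at least 12-fold higher for Gbp10, against 3 counts in PMC-303. Of 7 members with 1 CPM in either line, these 5 were at least 5-fold above PMC-303 in PMC-306 on the CPM + 0.1 scale. So were 2.33% of 12808 genes with that level. Gbp4, Gbp8, Gbp9 and Gbp10 reached 1 CPM only in PMC-306, and the choice of genes used this contrast, so the share is for scale only. Among chromosome 3 members the ratio was 2.52 for Gbp2 (1.99 to 3.22), 2.39 for Gbp3 (0.829 to 7.75) and 1.2 for Gbp7 (1.12 to 1.3). For the other 2 family genes it was 7.89 for Gbp2b on chromosome 3 (4.78 to 13.8) and 123 for Gbp11 on chromosome 5 (33.6 to 1021). These intervals compare 2 libraries and hold no biological replicate.

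Gbp11, the last gene of the chromosome 5 cluster, had 2 counts in PMC-303, 10.1 CPM in PMC-306 and 0.624 CPM in male culture 1, and the remaining 5 cultures did not exceed 0.0643 CPM. It was high in the same 2 libraries as its neighbours. Gbp2b, which encodes the protein long called mouse GBP1, followed another order. It had 0.741 CPM in PMC-303, 5.84 CPM in PMC-306, and 2.28, 3.24 and 8.76 CPM in female cultures 2 and 3 and male culture 3. It had 0 counts in female culture 1 and in male cultures 1 and 2, which are the 3 primary cultures with the most Gbp4, Gbp6 and Gbp9. The labels give a mixed strain and no genotype per culture, and the part of genotype in these zeros was not tested.

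Among the primary cultures Gbp4, Gbp6 and Gbp9 varied widely and shared their upper order. Male culture 1, female culture 1, male culture 2 and female culture 2, in this order, had the 4 highest primary values of Gbp4, Gbp6 and Gbp9. The highest primary culture exceeded the lowest 296-fold for Gbp6, 83.9-fold for Gbp4 and 63.5-fold for Gbp9, compared with 4.75-fold for Gbp2 and 1.24-fold for Gbp7. The SD of log2(CPM + 0.1) over the 6 cultures was 2.65 for Gbp6, 2.27 for Gbp4 and 1.96 for Gbp9. These exceeded the SD of 99.7%, 99.4% and 99.1% of 13710 genes tested between sexes, whose median SD was 0.18. Gbp2 with 0.9 and Gbp3 with 1.19 were above 94.7% and 96.7% of genes, and Gbp7 with 0.12 above 28% of genes.

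Male culture 1 had the highest primary value of all 9 members, compared with 14.9% of genes tested. The T cell gene Cd4 reached 3.22 CPM in this culture and no more than 0.211 CPM in the remaining 5. The 8 T and NK cell markers summed to 3.88 CPM there, the most of any library, and to 0.689 CPM in the lowest primary culture. Cd4 made up most of the 3.88 CPM. Ncr1, another of the 8, went the other way, with 0.409 CPM in male culture 1 and 0.505 to 1.98 CPM in all other libraries. Of the defining T cell genes, Cd3d and Cd3e had 0 counts in this culture, while Cd3g had 0.255 CPM, its highest value in any library. Of the 8 markers, 5 had 3 counts or fewer in every library, and the part of T cells in the Gbp values was not tested.

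In PMC-306 the 7 macrophage markers summed to 441 CPM, compared with 7.16 CPM in PMC-303 and 7.22 to 68.7 CPM in the primary cultures. Of this sum 426 CPM came from Adgre1, which encodes F4/80. The defining macrophage genes C1qa, C1qb and Cd14 had 3 counts or fewer in every library, and Csf1r was at 0.0982 CPM in PMC-306. In such bulk libraries a larger number of positive cells and more RNA per cell cannot be told apart.

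The comparison of female with male primary cultures was independent of the choice of genes. Limma with Benjamini-Hochberg adjustment called 6 of 13710 genes (0.0438%) and none of the 6 members tested, Gbp2, Gbp3, Gbp4, Gbp6, Gbp7 and Gbp9. Across all genes 457 had an unadjusted p under 0.05. Gbp2 came closest among members, with a mean of 7.38 CPM in female and 17.6 CPM in male cultures, a log2 difference (female minus male) of -1.37 ± 0.37 (SE), an unadjusted p of 0.00823 and an adjusted p of 1 by limma. Gbp6 had a log2 difference of -1.03 ± 1.84 (SE) and Gbp7 of -0.14 ± 0.08 (SE), both with an adjusted p of 1 by limma. Without male culture 1 the difference of Gbp6 changed direction, to 0.67, as did those of Gbp4 and Gbp9, to 0.09 and 0.7. Gbp5, Gbp8 and Gbp10 had too few counts to be tested.

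The deposited transcript counts divided the members further. For Gbp7, transcript ENSMUST00000045097.11 carried 81.5% of counts in PMC-303, 85.8% in PMC-306 and 82% in the primary cultures. For Gbp6 in PMC-306, ENSMUST00000200045.5 and ENSMUST00000196520.2 carried 43.2% each and ENSMUST00000199944.2 13.6%. In Gbp4 a single transcript, ENSMUST00000196204.5, carried 77.4% in PMC-306 and 90.2% in the primary cultures. For Gbp9, ENSMUST00000196820.5 carried 57.2% in PMC-306 and 40.5% in the primary cultures. The few Gbp3 counts of the lines, 6 and 12, all fell on ENSMUST00000106222.9, while 87.2% of the pooled Gbp3 counts of primary cultures fell on ENSMUST00000106221.8. In female culture 3 and male culture 2 most of the few Gbp3 counts (1.003 of 1.003 and 7.156 of 9.012) fell on the same transcript as in the lines. Transcripts of these genes are alike, and their split by the quantifier was not tested.

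The nearest other protein-coding genes were followed to see where the pattern ended. Abcg3, an ABC transporter gene and the first beyond Gbp8 (chr5:105082923-105130584), had 4.67 CPM in PMC-306 but 2 counts in PMC-303. It had 3.32 CPM in male culture 1, and the remaining 5 cultures did not exceed 0.497 CPM. Its ratio between the lines was 56.7 (exact 95% interval 15.3 to 475). Zfp951, a zinc finger gene beyond it, had 0.0823 CPM in PMC-303, 0.54 CPM in PMC-306 and 0.158 to 6.9 CPM in the primary cultures, with the highest value in male culture 2.

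Beyond Gbp11, the channel subunit genes Lrrc8b and Lrrc8c varied less. Lrrc8b had 199 CPM in PMC-303, 161 CPM in PMC-306 and 171 to 202 CPM in the primary cultures. Lrrc8c had 34.7 CPM in PMC-303, 47.2 CPM in PMC-306 and 27.6 to 34.6 CPM in the primary cultures. On chromosome 3, Pdlim5 had 154 CPM in PMC-303, 101 CPM in PMC-306 and 179 to 223 CPM in primary cultures, and Bmpr1b was at or near 0. Kyat3, an aminotransferase gene, had 51.7 CPM in PMC-303, 19.8 CPM in PMC-306 and 15.2 to 22 CPM in the primary cultures. Gtf2b, a general transcription factor gene, had 47.4 CPM, 49.7 CPM and 27.3 to 33.3 CPM in the same order.

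**Figure D4:**
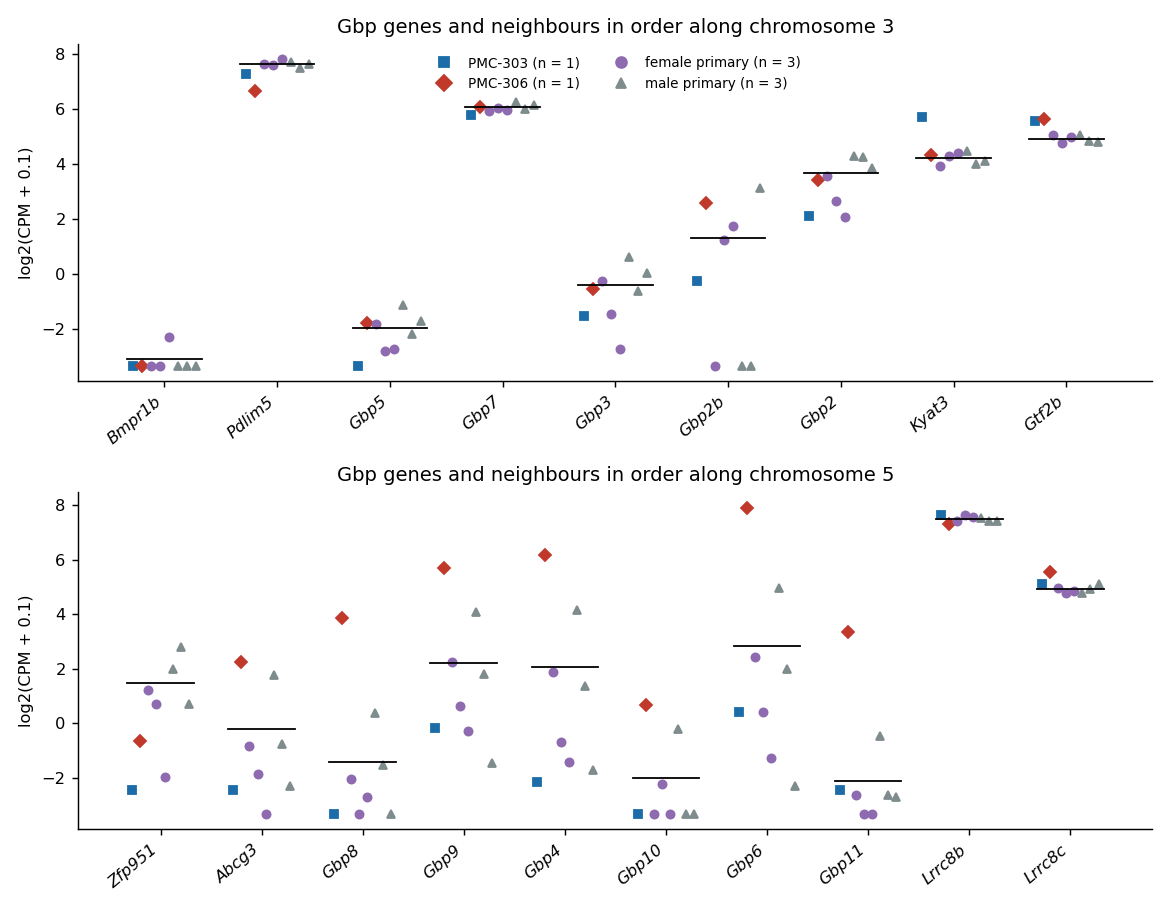
Points give log2(CPM + 0.1) per library for the Gbp genes and the 2 nearest other protein-coding genes on each side, in their order along each chromosome, and black lines give the primary mean. PMC-306 and male primary culture 1 are the 2 highest libraries for the chromosome 5 Gbp genes and for Abcg3, with 4.67 and 3.32 CPM, and not for Lrrc8b.

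Gbp4 had the largest fold between the lines on the CPM + 0.1 scale and was used to look for genes with a like pattern over the 8 libraries. Of 8750 genes averaging 10 CPM or more, members left out, the highest Pearson correlations of log2(CPM + 0.1) were with the transferrin gene Trf (0.966), the peptide transporter gene Tap2 (0.956), the transglutaminase gene Tgm2 (0.95), the early response gene Ier3 (0.941) and Pxdc1 (0.939). Tgm2 had 0.288 CPM in PMC-303, 75.6 CPM in PMC-306, 8.53 CPM in male culture 1 and 0.0527 to 1.7 CPM in the other primary cultures. It thus averaged 10 CPM, and entered the comparison, only through PMC-306. Trf had 11.8 CPM in PMC-303, 45.5 CPM in PMC-306 and 14.5 to 30.6 CPM in the primary cultures. Tap2 had 93.7 CPM, 195 CPM and 94.8 to 148 CPM in the same order. The correlations describe 8 libraries, of which 6 are primary cultures, and were selected as the highest.

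The pathway that controls and surrounds the GBPs was followed in 11 lists of 103 genes, of which 77 were tested in both lines against the 6 primary cultures. Limma with Benjamini-Hochberg adjustment called 8 higher and 22 lower. Of all 14529 genes tested, 18.3% were called higher and 15.5% lower. Of the 30 calls 8 held under all 15 alternatives tried, namely lower Ifi47, Tgtp2, Irgm1, Cd274, Ifitm3 and Casp4 and higher Ifngr2 and Atl2. Leaving out 1 line ended 20 of the 30 calls, with an adjusted p of 0.0665 to 0.344 by limma, and leaving out 1 primary culture ended 8 of them, with 0.0501 to 0.0778.

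Of the interferon ligands, 4 were in the list and none of them was detected. Ifng, Ifnb1, Ifna4, Ifnk, Il12b and Il27 had 0 counts in every library, which allows up to 0.187 CPM. Il12a had at most 0.124 CPM, and Il18, which promotes interferon-gamma production, had 0.123 CPM in PMC-303, 0.196 CPM in PMC-306 and 0.22 to 0.944 CPM in primary cultures. None of the 8 genes of this list could be tested.

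Among 10 tested genes of receptors and their signalling proteins, 2 rose and 1 fell. Ifngr2, the signalling chain of the interferon-gamma receptor, was higher in both lines, with 11.4 and 16.5 CPM in PMC-303 and PMC-306 and 4.26 ± 0.663 CPM in the primary cultures (SD, n = 6). Its log2 difference was 1.68 ± 0.21 (SE), with an adjusted p of 0.000589 by limma. Ifngr1, the ligand-binding chain, had 18.3, 23.6 and 18.5 ± 1.77 CPM in the same order (adjusted p = 0.353 by limma). Ifnar1, a chain of the type I interferon receptor, was called higher (adjusted p = 0.0308 by limma), but not without PMC-306 (adjusted p = 0.252). Il10rb, a receptor chain shared by interferon lambda, was called lower (adjusted p = 0.0221 by limma), but not without PMC-303 (adjusted p = 0.184).

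Of 8 tested transcription factors none rose and 4 fell. Irf1, the factor best known for driving GBPs, had 42.4 CPM in PMC-303, 50.9 CPM in PMC-306 and 56.3 ± 6.39 CPM in primary cultures (SD, n = 6), and was not called (adjusted p = 0.133 by limma). Irf9, a factor of type I interferon signalling, fell by 0.53 on the log2 scale (adjusted p = 0.009 by limma), but its call was lost without PMC-306 (adjusted p = 0.0797). Irf5 fell by 0.55 (adjusted p = 0.0224), and this call was lost without either line (adjusted p = 0.0712 without PMC-303 and 0.108 without PMC-306). The other 2 were Irf2 and Irf3, whose calls were also lost without either line.

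Nlrc5, the transactivator of MHC class I genes, was near 0 in the lines, at 0.0412 CPM in PMC-303 and, in PMC-306, 0.0491 CPM. The female cultures had 2.62, 0.0878 and 0.211 CPM and the male cultures 8.07, 2.11 and 0.682 CPM. Male culture 1, female culture 1 and male culture 2 were again the 3 highest primary cultures, while both lines were below all of them. The difference was at least 5-fold in each line and was not called by limma (adjusted p = 0.114).

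The immunity-related GTPases (IRGs), a second family of interferon-induced vacuole GTPases, were followed next. Of 6 tested, none rose and 3 fell. Ifi47 had 0.823 CPM in PMC-303, 1.52 CPM in PMC-306 and 27.1 ± 9.44 CPM in the primary cultures (SD, n = 6), a log2 difference of -4.4 ± 0.38 (SE) with an adjusted p of 0.000126 by limma. Tgtp2 had 1.03, 2.41 and 19.5 ± 7.85 CPM in the same order, a log2 difference of -3.44 ± 0.45 (SE) with an adjusted p of 0.000773 by limma. Irgm1, a regulator of the other IRGs, had 17.7, 17.6 and 35.5 ± 5.52 CPM, with an adjusted p of 0.00164 by limma. All 6 primary cultures were above both lines for each of these genes.

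Irgm2 and Igtp, both regulators as well, had 33.3 ± 4.38 and 19.6 ± 1.41 CPM in the primary cultures (SD, n = 6), 39.4 and 24.3 CPM in PMC-303 and, in PMC-306, 32.3 and 18.8 CPM. They were not called (adjusted p = 0.593 and 0.439 by limma). Gm12250 had 1.28 CPM in male culture 1 and at most 0.497 CPM in any other library (adjusted p = 0.106 by limma). Iigp1 had 0 counts in every library, and Tgtp1 had a count only in PMC-306, at 0.0491 CPM. Over the 6 tested IRGs the median log2 difference was -1.3, compared with -0.01 over all genes tested.

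Among other dynamin-like GTPases, Atl2, an atlastin that fuses membranes of the endoplasmic reticulum, rose by a log2 difference of 1.32 ± 0.18 (SE, adjusted p = 0.00104 by limma), and Atl3 did not pass the test (adjusted p = 0.607). The antiviral genes Mx1 and Mx2 were at most at 0.395 CPM in any library and were not tested.

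The genes that link GBPs to pyroptosis moved in both directions. Of 6 tested, 1 rose and 3 fell. Casp4, which encodes the caspase that senses lipopolysaccharide in the cytosol, had 0.0412 CPM in PMC-303, 0 counts in PMC-306 and 3 ± 0.796 CPM in primary cultures (SD, n = 6), with an adjusted p of 8.04e-05 by limma. Casp1 had 0.37 CPM in PMC-303, 3.78 CPM in PMC-306 and 8.68 to 36.9 CPM in the primary cultures (adjusted p = 0.00389 by limma). Aim2, a DNA sensor, had 9.26 CPM, 25.4 CPM and 39.8 ± 7.46 CPM in the same order (adjusted p = 0.0159 by limma), and its call was lost without PMC-303 (adjusted p = 0.105). Nlrp3, the sensor of the inflammasome named after it, had 14.1 CPM in PMC-303, 119 CPM in PMC-306 and 1.89 to 14.1 CPM in primary cultures. Its call (adjusted p = 0.0386 by limma) was lost without PMC-306 (adjusted p = 0.344).

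Of 7 tested interferon-gamma targets in antigen processing and chemotaxis, none was called higher over both lines and 3 were called lower. Cd274, which encodes PD-L1, had 53.2 CPM in PMC-303, 78.2 CPM in PMC-306 and 156 ± 19.5 CPM in the primary cultures (SD, n = 6), with an adjusted p of 0.000799 by limma. Tapbp, which loads peptides on MHC class I, fell by 0.34 on the log2 scale (adjusted p = 0.0218 by limma), and this call was lost without PMC-306 (adjusted p = 0.173). Psmb10 was the third, and its call was lost without PMC-303 (adjusted p = 0.179). Psmb8, Psmb9 and Tap2 were not called, although PMC-306 was above all 6 primary cultures, with 127, 25.5 and 195 CPM. Their highest primary values were 89.4, 16.5 and 148 CPM. PMC-303 was above the primary range for none of them, with 74.4, 12.6 and 93.7 CPM, and Tap1 was inside it in both lines. The chemokine genes Cxcl9 and Cxcl10, usually induced strongly with GBPs, had at most 0.0525 CPM in any library.

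Of 13 tested type I interferon-stimulated genes, 3 rose and 5 fell. Ifitm3, which blocks viral entry, had 0 counts in PMC-303, 0.0491 CPM in PMC-306 and 2.64 ± 1.45 CPM in the primary cultures (SD, n = 6), with an adjusted p of 0.000799 by limma. Oas1a, a sensor of double-stranded RNA, had 0.247 CPM in PMC-303, 7.37 CPM in PMC-306 and 15.2 ± 2.97 CPM in primary cultures (adjusted p = 0.025 by limma). The RNA sensor genes Ifih1 and Dhx58 had 0.982 and 1.03 CPM in PMC-306 but 0.535 and 0.288 CPM in PMC-303. Their primary means were 5.15 ± 2.8 and 2.55 ± 1.01 CPM (SD, n = 6), and both calls (adjusted p = 0.0172 and 0.044 by limma) were lost without PMC-303 (adjusted p = 0.113 and 0.31).

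Ifit2, which binds viral RNA, had 0.823 CPM in PMC-303, 3.83 CPM in PMC-306 and 0.162 ± 0.116 CPM in the primary cultures (SD, n = 6, adjusted p = 0.00787 by limma). Oasl2 had 1.15, 3.73 and 0.524 ± 0.23 CPM in the same order (adjusted p = 0.0293 by limma). Without PMC-306 neither was called (adjusted p = 0.0754 and 0.252). Rsad2, the gene of viperin, was past 5-fold lower in PMC-303 with 0.0412 CPM, had 1.13 CPM in PMC-306 and 0.369 to 4.62 CPM in the primary cultures, and was not called (adjusted p = 0.186 by limma). Xaf1 was called higher and Bst2 lower, and both calls were lost without PMC-306 (adjusted p = 0.258 and 0.0665).

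The remaining lists held fewer calls. Of 6 feedback inhibitors 1 rose, the phosphatase gene Ptpn6 (adjusted p = 0.0149 by limma), which was not called without PMC-306 (adjusted p = 0.134). Usp18, which restrains type I interferon signalling, had 18.3 CPM in PMC-303, 57.1 CPM in PMC-306 and 8.78 to 25.6 CPM in the primary cultures (adjusted p = 0.125 by limma). Of 13 genes for ATG8 conjugation and vacuole ubiquitin, which bring GBPs to vacuoles, 2 fell, Map1lc3b (adjusted p = 0.0241 by limma) and Atg16l1 (adjusted p = 0.0285), and both calls were lost without PMC-303 (adjusted p = 0.161 and 0.168). Of 5 prenylation enzymes, Icmt fell by 0.37 on the log2 scale (adjusted p = 0.0212 by limma), a call lost without PMC-306 (adjusted p = 0.176), and Fntb did not pass the test (adjusted p = 0.159).

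By size, 10 of 103 list genes were at least 5-fold lower in PMC-303 and 6 in PMC-306. These 6 (Ifi47, Tgtp2, Nlrc5, Ifitm3, Casp1 and Casp4) were among the 10. No list gene was at least 5-fold higher in PMC-303, and 3 were in PMC-306 (Ifit2, Oasl2 and Nlrp3). Of all genes with 1 CPM in the line or in the primary mean, 3.16% were lower and 3.9% higher in PMC-303. In PMC-306 these shares were 3.83% and 3.96%. Not every list gene reached 1 CPM. PMC-306, in which the 5 chromosome 5 members were 6.37-fold to 39.3-fold higher, had list genes on both sides of all 6 primary cultures. Ifi47, Tgtp2, Casp1, Casp4, Ifitm3 and Nlrc5 were below them, and Ifit2, Oasl2 and Nlrp3 above. For Nlrc5 the lowest primary value, 0.0878 CPM in female culture 2, was itself near the limit of detection. Among list genes under 5-fold there, Irgm1 and Cd274 were some of those below all 6 primary cultures. Psmb8, Psmb9, Tap2, Usp18 and Xaf1 were some of those above.

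**Figure D5:**
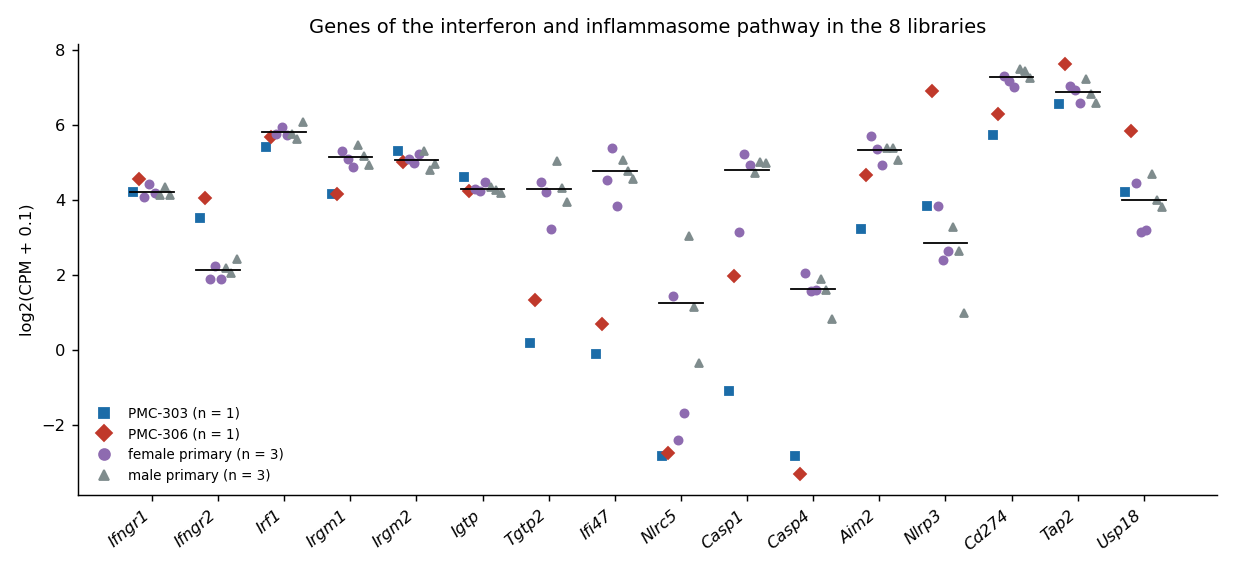
Points give log2(CPM + 0.1) of genes of the interferon and inflammasome pathway, 1 point per library, with a black line at the mean CPM of the 6 primary cultures. Both lines lie below the primary cultures for Tgtp2, Ifi47, Casp4 and Cd274 and above them for Ifngr2, while only PMC-306 is high for Nlrp3 with 119 CPM and Usp18 with 57.1 CPM.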

How the data were processed

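The authors prepared stranded libraries from total RNA of 8 cultures, trimmed reads with Trim Galore 0.6.7, aligned them to GRCm39 with STAR 2.7.9a and quantified them with Salmon 1.5.2. The estimated counts deposited for genes and for transcripts are not normalized, and the deposited TPM values are scaled for length and depth by the authors' pipeline. The tables had been altered by a spreadsheet. Of gene count cells 3.37%, of transcript count cells 3.22% and of TPM cells 21.8% were set back to numbers, among them 11 of 88 Gbp count cells, and in 5418 TPM cells the decimal point was chosen to fit the counts. For this reason the tables were not treated as clean counts, and no count model was used.

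CPM values use library sizes scaled by the trimmed mean of M values (TMM). Folds compare CPM + 0.1, which understates changes of low genes, and a call needs 5-fold and 1 CPM in the line or in the primary mean. Limma 3.58.1 in R 4.3.3, with a mean-variance trend, was run on log2(CPM + 0.1) of all genes with about 10 counts in enough libraries and 15 in total, two-sided with Benjamini-Hochberg adjustment at 0.05. On simulated data it recovered 100% of 200 genes changed 4-fold among 14217 genes (lines) and 13731 genes (sexes), with 7 and 6 false calls. The simulation gave every gene the same small dispersion and changed only genes with enough counts. It does not show what would be recovered for genes as variable as Gbp4, Gbp6 and Gbp9. Pairs of primary libraries differed beyond sampling noise (chi-square per degree of freedom 20.6 to 68.1). Named were all members, Gbp2b, Gbp11, the 2 nearest other protein-coding genes on each side, and from the lists Irf1, Ifngr1, Ifngr2, the IRGs, genes at least 5-fold from the primary mean and the 2 lowest adjusted p per list. Other list genes and markers were named after their values were seen. The members and lists were chosen with earlier results of these data known. GENCODE M39 held 98.9% of the deposited genes. Rigi was measured as Ddx58. Many list genes are counted within their lists and given no value here.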

Additional observations from a re-analysis of the deposited data

Results flagged for a closer look

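A primary culture far from the other 5 was searched among the Gbp genes, their neighbours and the IRGs, where chance gives about 1 in 20. Of 24 genes, 9 had one, and in 8 of them it was male culture 1 at the top. It had 17.6 CPM of Gbp4 (next 3.62), 31.1 CPM of Gbp6 (next 5.28), 1.19 CPM of Gbp8 (next 0.249), 16.7 CPM of Gbp9 (next 4.69) and 0.777 CPM of Gbp10 (next 0.112). It also had 0.624 CPM of Gbp11 (next 0.0643), 3.32 CPM of Abcg3 (next 0.497) and 1.28 CPM of Gm12250 (next 0.497). Of these genes 6 lie in one cluster and may share reads with each other, so that they are not independent. Gbp2b was instead highest in male culture 3, with 8.76 CPM (next 3.24).

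The lines lay at least 5-fold from the primary mean on opposite sides for 3 members, on the log2 scale of CPM + 0.1. The differences were -4.24 in PMC-303 and 4.08 in PMC-306 for Gbp4, -2.41 and 5.09 for Gbp6, and -2.39 and 3.49 for Gbp9. With 1 library per line this was not tested, and the genes were chosen by it.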

How the results depend on the processing

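Members at least 5-fold higher in PMC-306 numbered 5 under 11 of 13 alternatives and 4 with an offset of 1 CPM and against male cultures only, where Gbp10 was under 5-fold. Members at least 5-fold lower in PMC-303 numbered 3, but 1 with total count scaling, with deposited TPM, with female primary cultures only and with the primary median, and 0 with an offset of 1 CPM. Leaving out 1 primary culture at a time gave 1 to 3, with 1 without male culture 1. Of 234 member folds recomputed, 225 moved by less than 1 SD of the primary cultures, 9 moved more and 0 changed direction among those past 5-fold. The primary SD of Gbp4, Gbp6 and Gbp9 was wide (2.27, 2.65 and 1.96 on the log2 scale), so that this count is a weak check for them. Limma called 4920 genes between lines and primary cultures, 2160 against female cultures only, 3033 against male cultures only and 3848 to 4664 with 1 library left out. Total count scaling called 3406 higher and 1665 lower and deposited TPM 2375 higher and 982 lower, in place of 2665 and 2255, and TPM moved the median log2 difference of all genes to 0.127. Pathway genes called higher numbered 8, and 2 against female and 4 against male cultures only, and 3 to 13 with 1 library left out (13 without PMC-303, 3 without PMC-306, 5 without male culture 2). Those called lower numbered 22, and 11 with TPM, 6 against female and 13 against male cultures only, and 15 to 23 with 1 library left out. In all, 22 of the 30 calls were lost under at least 1 alternative, and 15 other list genes passed under some. Without a line, the remaining line is assumed to vary like the primary cultures. The causes of these differences were not tested. Between sexes 5 to 6 genes were called with 1 culture left out.

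A replicate block called 5 genes between sexes, in place of 6, and no member under any of 12 alternatives. Same-numbered female and male cultures had deviations that correlated at 0.4, -0.22 and 0.28, so that they share only a number. Female culture 1 and male culture 2 correlated more, at 0.42. Depth limits Gbp5, Gbp8 and Gbp10, where primary cultures had few counts.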
